A study of Homo sapiens with 2 samples.

Results

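The genes described here encode the proteins of the mitochondrial ribosome and were chosen by name: every gene whose symbol is MRPL or MRPS followed by a digit, among probe sets (groups of short probes for 1 transcript) that the platform annotation gives to a single gene. The rule took 77 genes of the 19775 with such a probe set. Of these, 75 are protein-coding, MRPL20-AS1 is an antisense RNA and MRPL45P2 is a pseudogene. In all, 76 passed the filter on low signals, and MRPL45P2, with log2 signals of 1.31 (control mimic) and 1.61 (miR-194 mimic), did not. MRPL53 and MRPS24 were read only by probe sets that the annotation gives to several genes, so neither was among the 77.

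The mitochondrial ribosome translates the few mRNAs that the mitochondrial genome encodes, all of them for subunits of the respiratory chain and ATP synthase. Its rRNAs come from the mitochondrial genome, while its proteins are made in the cytosol from nuclear genes and imported. The large subunit forms the peptide bond and holds the exit tunnel, and the small subunit decodes the mRNA. Some of the proteins descend from bacterial ribosomal proteins and others have no bacterial counterpart.

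Gene expression was measured in HEK-293T, an established human embryonic kidney line that carries the SV40 large T antigen. The groups were cells transfected for 48 h with 50 nM of a miR-194 mimic, a synthetic RNA that stands in for the natural microRNA, and cells given a negative control mimic at the same dose and time, both with lipofectamine 2000. Each group had 1 Affymetrix array, so there were no replicates, no p-value was computed, and differences between the cultures or arrays cannot be told apart from an effect of the mimic. Among markers of the line, PAX2, PAX8, NEFL, NEFM, KRT8, KRT18 and VIM passed the filter, and LHX1 did not. Of the markers of other tissues, 0 of 6 for hepatocytes, 1 of 5 for enterocytes (CDX2) and 1 of 4 for blood (CD3E) passed. So did 3 of 5 for fibroblasts (COL1A1, COL3A1, DCN) and 1 of 3 for endothelium (PECAM1). CD3E was at the floor on the control array (log2 6.10), and DCN was at or near it on both arrays (6.10 and 6.06). The filter passed 12769 of all 19775 genes, so passing alone says little about cell identity.

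The mature strands of human miR-194 in RefSeq are shown because the mimic is the only thing that differed by design between the arrays, and capitals mark the seed, bases 2 to 8. The labels do not name the strand that the mimic copies.
hsa-miR-194-5p: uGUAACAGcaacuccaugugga
hsa-miR-194-3p: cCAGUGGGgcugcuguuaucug

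Mitochondrial ribosomal protein transcripts were close to level between the arrays. Each gene was represented by its brightest kept probe set, and a difference above 0 means a higher log2 signal on the miR-194 array. The differences ran from -0.29 (MRPL1) to 0.39 (MRPL17) with a median of 0.11 and an SD over genes of 0.13. For all 12769 kept genes the median was 0.02 and the SD 0.36. Of the 76 genes, 60 lay above 0 (78.9%) and 16 below. The share above 0 was 52.4% of all kept genes, 62.9% of bright ones, with a mean log2 signal above 10.87, and 73.3% of those that were also shorter than the median gene. Within 0.2 of 0 lay 60 of the 76 (78.9%), against 49.4% of all kept genes and 61.2% of the bright ones. None was lower by 1.5-fold or more (0 of 76, against 7.31% of all kept genes) and none was higher (0 of 76, against 2.98%). At a smaller threshold, a log2 difference of 0.32, 0 were lower, against 17.7% of all genes, and 3 were higher, or 3.95%, against 12.8%. In whole-culture RNA, fewer cells with a transcript and less of it per cell cannot be told apart.

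With no replicate array, the disagreement between probe sets of the same gene served as the error, written after ±. It was taken from 6456 genes, as the spread between the differences that each gene's 2 brightest probe sets gave, scaled to a single probe set. It was 0.27 in the upper class of signal (mean log2 above 10.87), which held 70 of the 76 genes, 0.31 in the middle class with 4 genes and 0.38 in the lower class with 2 genes. It leaves out variation between cultures and labelling reactions. It also takes in the noise of the second, dimmer probe set, so it may overstate the error of the brightest. The differences of the 70 genes in the upper class had an SD of 0.14, smaller than their error. Lying inside the error does not show that a gene was level. Lower by more than its probe set error was 1 gene, or 1.32%, against 17.0% of all kept genes. Another 5 genes were higher by more than their error, or 6.58%, against 12.4%. All of these were among the 70 members of the upper class. Of all 3370 genes in that class, 424 were lower and 400 higher. Of the 1836 in it shorter than the median gene, 118 were lower and 261 higher, against 0 and 3 of the 57 members there. The members' counts depended on the processing. With the arrays centred on their medians 0 were lower and 11 higher, and with the spikes 6 were lower and 0 higher. With a floor at the 75th percentile the counts were 2 and 12, and with no floor 0 and 0. The matching shares of all kept genes were not taken under these settings.

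**Figure D1:**
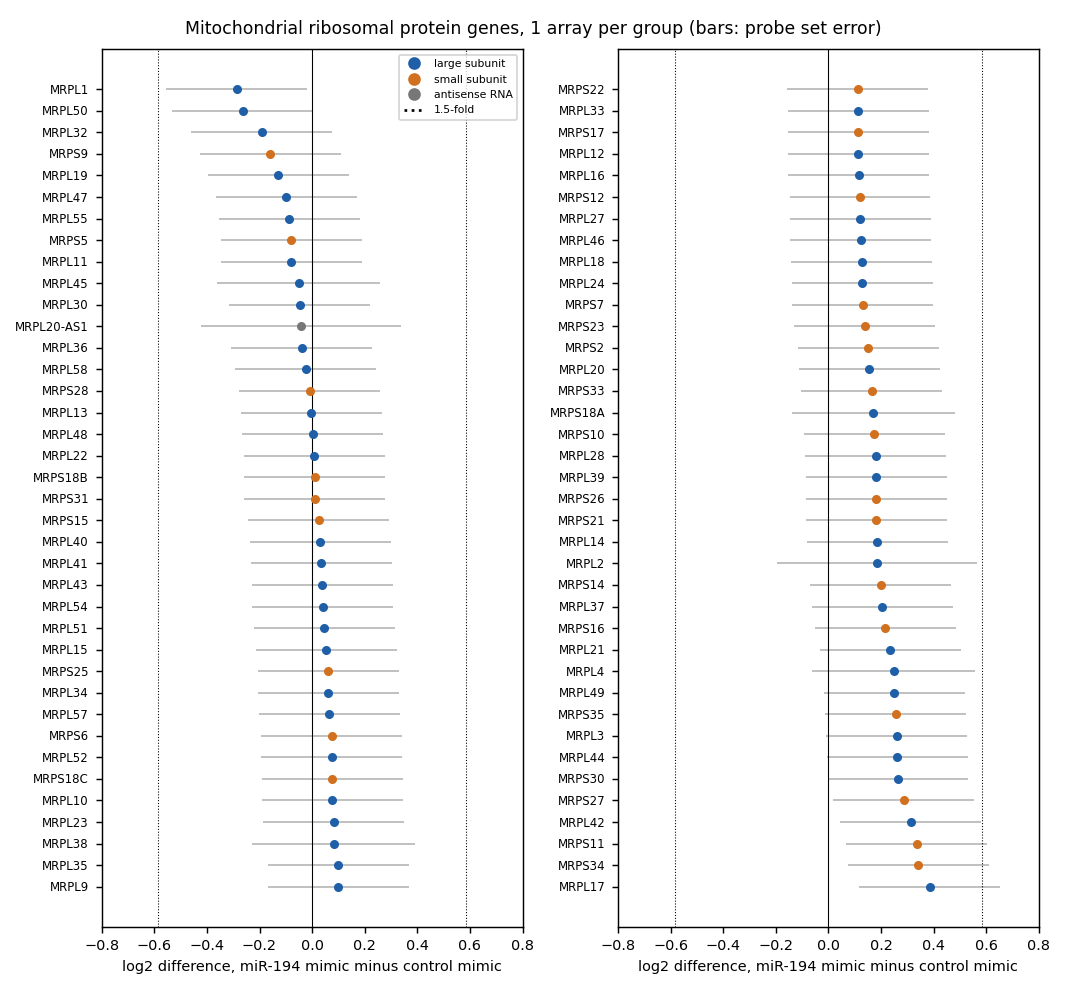
Log2 difference (x axis, miR-194 mimic minus control mimic) of each of the 76 kept genes, ranked from the lowest (top left) to the highest (bottom right), coloured by ribosomal subunit; grey bars are the probe set error and dotted lines mark 1.5-fold. No point reaches a dotted line; only MRPL1 on the low side and MRPS27, MRPL42, MRPS11, MRPS34 and MRPL17 on the high side clear 0 by more than their bar.

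The highest value belonged to MRPL17, counterpart of a bacterial protein at the rim of the exit tunnel. Its log2 signal was 11.82 on the control array and 12.20 on the miR-194 array, a difference of 0.39 ± 0.27 (1.31-fold) on its single probe set. MRPS34, a small subunit protein with no bacterial counterpart that is mutated in a mitochondrial disease, went from 12.11 to 12.45 (0.34 ± 0.27). MRPS11, counterpart of bacterial S11, went from 11.70 to 12.04 (0.34 ± 0.27), and its other probe set was at 0.20. These 3 genes are those past a log2 difference of 0.32, and the miR-194 array was the higher one for each.

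MRPL42, a large subunit protein, had log2 signals of 12.89 and 13.20 (0.31 ± 0.27). Its other probe sets went down to -0.67, so its direction is not shared within the gene. MRPS27, a protein with pentatricopeptide repeats, a fold that binds RNA, had 11.82 and 12.11 (0.29 ± 0.27). MRPS30, which sits in the large subunit in spite of its name, was at 0.26 ± 0.27, just inside its error, and its other probe sets went down to -0.27. MRPL44, a protein with a ribonuclease III fold near the tunnel exit, was at 0.26 ± 0.27 with another probe set at -0.11. MRPL3, counterpart of bacterial L3, had signals of 14.39 and 14.65 (0.26 ± 0.27).

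The lowest value belonged to MRPL1, counterpart of the bacterial L1 protein, which contacts tRNA as it leaves the ribosome. The control array read 11.90 and the miR-194 array 11.61, a difference of -0.29 ± 0.27 (1.22-fold). MRPL50, a large subunit protein without a bacterial counterpart, had 11.97 and 11.70 (-0.26 ± 0.27), and its second probe set was lower still, at -0.51. Among the lowest 8, MRPL50 and MRPL19 had a further probe set below 0 by more than the error. MRPL32, whose precursor is cut by the mitochondrial m-AAA protease, had 12.97 and 12.78 (-0.19 ± 0.27).

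The rest of the lowest 8 lay closer to 0. MRPS9, counterpart of bacterial S9, was at -0.16 ± 0.27, and MRPL19, counterpart of bacterial L19, was at -0.13 ± 0.27. MRPL47, which corresponds to bacterial L29 at the tunnel exit, was at -0.10 ± 0.27, MRPL55 at -0.09 ± 0.27 and MRPS5, counterpart of bacterial S5, at -0.08 ± 0.27. All of these are inside the error. MRPL47 had another probe set at 0.53 and MRPS5 one at 0.52, so these genes have no shared direction.

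The 2 subunits differed little. The 50 large subunit genes had a median log2 difference of 0.08 (SD 0.14 over genes), with 38 above 0, and the 25 small subunit genes a median of 0.13 (SD 0.12), with 22 above 0. The ranges overlapped, from -0.29 to 0.39 and from -0.16 to 0.34, and the gap between the medians was not tested. MRPS30 and MRPS18A were counted in the large subunit, where the proteins sit. MRPL20-AS1, the antisense RNA, was at -0.04 ± 0.38 and belongs to neither.

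Within the large subunit, 8 proteins around the polypeptide exit tunnel had a median of 0.11, from MRPL47 at -0.10 to MRPL17. The central protuberance, the crown that faces the small subunit, was tighter, with 8 genes from MRPL55 at -0.09 to MRPL18 at 0.13 and a median of 0.05. The stalk that recruits translation factors had 4 genes measured and a median of 0.06. Its base protein MRPL11 had log2 signals of 11.69 and 11.61 (-0.08 ± 0.27), and MRPL12, the stalk protein itself, had 12.57 and 12.68 (0.11 ± 0.27) with a second probe set at -0.48. MRPS12, the decoding centre protein of the small subunit, had 12.88 and 13.00 (0.12 ± 0.27), and its other probe sets went down to -0.04. The 30 measured genes with no bacterial counterpart (median 0.10, from -0.26 to 0.34) covered nearly the same range as the 45 with one (median 0.11, from -0.29 to 0.39). No structural group held a gene past 1.5-fold.

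MRPS18A, MRPS18B and MRPS18C are 3 paralogs related to bacterial S18. MRPS18C was counted as its counterpart, and MRPS18A, which sits in the large subunit, and MRPS18B were counted among the genes without a counterpart. MRPS18A had log2 signals of 10.53 and 10.70 (0.17 ± 0.31), and its second probe set gave 0.19. MRPS18B had 11.73 and 11.74 (0.01 ± 0.27), with a second probe set at 0.33. MRPS18C had 12.57 and 12.65 (0.08 ± 0.27), with a second probe set at -0.29. The differences of the paralogs lay inside the error of each.

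The middle of the ranking was filled by genes of both subunits. Among large subunit genes near 0 were MRPL45 at -0.05 ± 0.31, MRPL30 at -0.05 ± 0.27, MRPL36 at -0.04 ± 0.27, MRPL22 at 0.01 ± 0.27 and MRPL40 at 0.03 ± 0.27. MRPL58, a peptidyl-tRNA hydrolase built into the large subunit, was at -0.02 ± 0.27. In the small subunit, MRPS28 was at -0.01 ± 0.27, MRPS31 at 0.01 ± 0.27, MRPS15 at 0.02 ± 0.27, MRPS6 at 0.07 ± 0.27 and MRPS22 at 0.11 ± 0.27. Above the median lay MRPS7 at 0.13 ± 0.27, MRPS2 at 0.15 ± 0.27, MRPL28 at 0.18 ± 0.27, MRPS14 at 0.20 ± 0.27, MRPL37 at 0.20 ± 0.27, MRPS16 at 0.22 ± 0.27, MRPL4 at 0.25 ± 0.31, MRPL49 at 0.25 ± 0.27 and MRPS35 at 0.26 ± 0.27. None of these values is larger than its error.

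The genes are bright on this array and short in the genome, and both properties went with the size of the differences in general. The median genomic length of the protein-coding members was 8.67 kb, against 29.8 kb for all kept genes. Over all 3370 kept genes of the upper signal class the median log2 difference was 0.07 and 3.92% were past 1.5-fold in either direction. In that class, the 1836 genes shorter than the median length had a median of 0.10 (SD 0.21), and 1.74% were past 1.5-fold. The 57 mitochondrial ribosomal protein genes of that kind had a median of 0.11 (SD 0.12) and 0 were past 1.5-fold. The 1534 longer genes had a median of 0.0025 (SD 0.29), and the 13 longer members a median of 0.01 (SD 0.18). So the members' medians lay near those of their signal and length classes, which include them, while their spread was narrower on these probe sets. Length was split only at the median: the shorter class had a median length of 12.2 kb, and the 57 members in it 7.91 kb. Without probe sets whose names mark probes able to match more than a single transcript, the SD was 0.26 over the 44 members left. The SD of other genes was not taken in that setting. On the brightest probe sets, the respiratory chain and ATP synthase genes (SD 0.14) and cytosolic ribosomal protein genes (SD 0.13) had a like spread. The part of signal and length in the members' values was not tested.

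**Figure D2:**
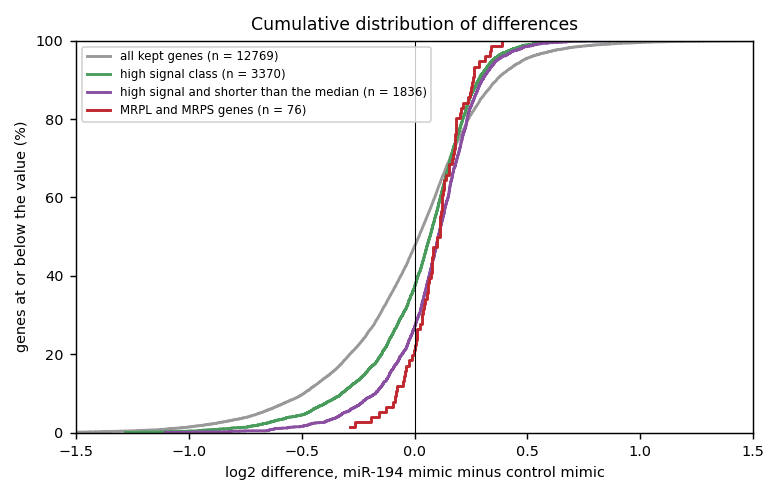
Cumulative percentage of genes (y axis) at or below each log2 difference (x axis) for the 76 genes, all 12769 kept genes, the 3370 of the upper signal class and the 1836 of these that are shorter than the median length; the few genes beyond 1.5 on either side are not drawn. The red curve of the 76 genes crosses 50% at 0.11, close to the purple curve of short, bright genes, and is steeper than all the others.

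Further probe sets of the same genes gave a wider picture. The 77 genes have 142 probe sets, of which 132 were kept. Of these, 4 were lower by 1.5-fold or more, or 3.03%, against 7.99% of all kept probe sets, and 1 was higher, or 0.758%, against 5.08%. The lower ones read MRPL19, MRPL41 and MRPL42, and the higher one read MRPL30. None of the 84 member probe sets in the upper signal class was past 1.5-fold, against 4.66% of all probe sets there. The 31 in the lower class held 3 of the lower ones and the higher one, where 16.6% of all probe sets were past 1.5-fold. The 17 in the middle class held 1 of the lower ones, where 10.7% of all probe sets were past 1.5-fold.

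MRPL19 stood apart in this respect. Its brightest probe set had log2 signals of 12.21 and 12.08, while the other kept probe sets went from 8.35 to 7.46 (-0.89) and from 8.22 to 7.62 (-0.60), both past 1.5-fold. The probe sets of MRPL19 share the direction but not the size. For MRPL42 another probe set went from 10.99 to 10.32 (-0.67), against the direction of the brightest. MRPL41, a large subunit protein, was at 0.03 ± 0.27 on its brightest probe set, and the probe set at -0.75 is a bound, since it lay under the floor with miR-194. MRPL30, counterpart of bacterial L30, had a probe set that went from 7.45 to 8.08 (0.64). These genes were singled out after their values were seen.

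Several kept probe sets were present for 34 genes, and 14 of these (41.2%) had all of them on the same side of 0, 11 above and 3 below, against 46.0% of the 6456 kept genes with several probe sets. All probe sets were past 1.5-fold in the same direction for 0 of the 34, against 1.58% of those 6456. The median range between the probe sets of a gene was 0.33 for the members and 0.42 for all. The brightest probe sets of 46 of the 76 genes carry a name ending that marks probes able to match more than a single transcript.

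**Figure D3:**
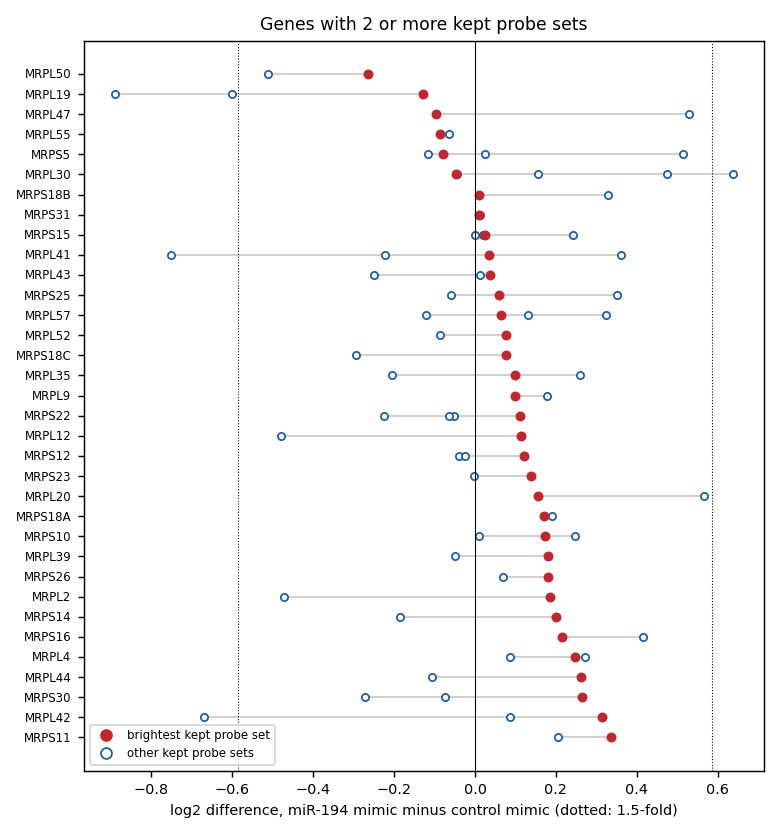
Log2 difference (x axis) of every kept probe set for the 34 genes with several, ranked by the brightest one (filled red); open blue circles are the others, grey lines join the probe sets of a gene and dotted lines mark 1.5-fold. The filled points stay between -0.26 and 0.34, while open circles of MRPL19, MRPL41, MRPL42 and MRPL30 pass a dotted line.

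Proteins of the mitochondrial ribosome with other names were within their error of 0. DAP3, a GTP-binding small subunit protein, had log2 signals of 12.38 and 12.64 (0.26 ± 0.27), CHCHD1 was at 0.07 ± 0.27, PTCD3 at 0.06 ± 0.27 and GADD45GIP1 at 0.05 ± 0.27. All 4 measured members of the 5 listed were above 0 on the brightest probe set, with 0 past 1.5-fold. Further probe sets went down to -0.07 for DAP3, -0.46 for PTCD3 and -0.09 for GADD45GIP1.

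Mitochondrial translation factors had a median of 0.15 over 11 measured genes of 12 listed, with 9 above 0. Past 1.5-fold were 0, against 10.3% of all kept genes in either direction. TUFM, the elongation factor that brings tRNA to the ribosome, had signals of 13.11 and 13.48 (0.37 ± 0.27), with its second probe set at 0.30. OXA1L, the insertase that receives the nascent chains, was at 0.32 ± 0.27 and MTRF1, a release factor homologue, at 0.30 ± 0.38 with another probe set at -0.70. The initiation factors were the lowest, MTIF3 at -0.25 ± 0.27 and MTIF2 at -0.15 ± 0.27. TUFM and OXA1L were the only 2 of the 11 past their error. Of all kept genes, 12.4% were higher and 17.0% lower by more than their error.

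Assembly factors had a median of 0.06 over 25 measured genes of 26. Past 1.5-fold was 1 (4%, against 10.3% of all kept genes in either direction). That gene was MRM1, a methyltransferase of the large rRNA, at 7.45 and 8.11 (0.66 ± 0.38) on its single, dim probe set. MTG1, a GTPase of large subunit assembly, was at 0.31 ± 0.31 and METTL17 at 0.28 ± 0.27. METTL15, a methyltransferase of the small rRNA, was at -0.37 ± 0.38 with another probe set at 0.16, MTERF3 at -0.26 ± 0.27 and FASTKD2 at -0.15 ± 0.31.

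Genes of mitochondrial RNA synthesis and turnover had a median of 0.11 and an SD of 0.34 over 11 genes, near the SD of all kept genes, with 1 past 1.5-fold (9.09%, against 10.3% of all kept genes in either direction). TBRG4, a mitochondrial RNA-binding protein, was at least 1.62-fold lower, from a log2 signal of 6.75 to a value under the floor. MTERF1, a transcription termination factor, went from 8.77 to 8.33 (-0.45 ± 0.38) and TEFM, an elongation factor of the mitochondrial polymerase, from 11.06 to 10.69 (-0.37 ± 0.27). GRSF1 was at 0.33 ± 0.27 with another probe set at -0.26, PNPT1 at 0.28 ± 0.27 and SUPV3L1 at 0.25 ± 0.27.

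Among 9 measured nuclear regulators of mitochondrial genes of 10 listed, GABPA, the DNA-binding subunit of an ETS-family factor, had the largest difference. Its brightest probe set went from 10.42 to 9.48 (-0.94 ± 0.31, 1.92-fold), but its second was at 0.13, with a signal of 8.33 on the miR-194 array. The partner subunit GABPB1 was at 0.18 ± 0.31 with another probe set at -0.18. YY1, a zinc finger factor, was at 0.18 ± 0.27, and all 6 of its probe sets were above 0, up to 0.48. NRF1 was at -0.04 ± 0.31, ESRRA at -0.19 ± 0.31 and MYC at 0.45 ± 0.27. GABPA alone of the 9 was past 1.5-fold, or 11.1%, against 10.3% of all kept genes in either direction. The median of the 9 was 0.10, close to that of the ribosomal protein genes, and PPARGC1A did not pass the filter.

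**Figure D4:**
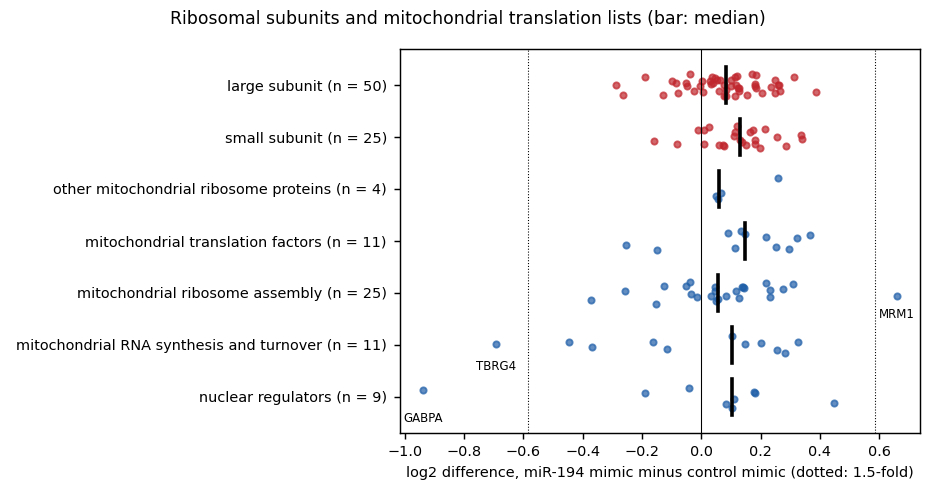
Log2 difference (x axis) of each measured gene of the large and small subunits (red) and of the other mitochondrial translation lists (blue), each point 1 gene, with the median as a black bar and 1.5-fold as dotted lines; the vertical scatter within a row has no meaning. The red rows stay between the dotted lines, and MRM1, TBRG4 (a bound) and GABPA are the only points beyond them.

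The promoters of the members share sequence features that the choice by name did not use. RefSeq promoter windows of 300 bases on GRCh38.p14, from 250 before to 50 after the annotated start, were given for 68 of the 77 genes (84 windows, since some genes have several starts). No window was given for MRPL10, MRPL13, MRPL15, MRPL2, MRPL21, MRPL23, MRPL35, MRPL45P2 and MRPS28. On either strand, the ETS core CCGGAAG, the type of site that GABPA binds, was in 33 of the 84 windows (39.3%), against 10.3% of all 35116 windows and 16.2% of those of kept genes. The YY1 core AAGATGGC was in 22 (26.2%), against 2.89% of all windows and 4.59% of those of kept genes. The NRF1 core GCATGCGC was in 6 (7.14%), against 3.05% and 4.63%, and its longer form, preceded by GC, in 1 (1.19%), against 1.24% and 1.92%. The shorter NRF1 core is contained in the longer one, and windows of the same gene overlap. A match is a description of the sequence and not a binding site.

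The 100 bases before the start are shown for the genes with the highest and lowest differences and for others with several or bright matches. Capitals mark the NRF1 core in MRPL17 (chr11:6683341-6683440, minus strand) and the ETS core in MRPS34 (chr16:1773135-1773234, minus strand), MRPL20 (chr1:1407294-1407393, minus strand) and MRPL3 (chr3:131502972-131503071, minus strand). MRPL1 (chr4:77862730-77862829, plus strand) has none of these letters in the stretch shown.
MRPL17: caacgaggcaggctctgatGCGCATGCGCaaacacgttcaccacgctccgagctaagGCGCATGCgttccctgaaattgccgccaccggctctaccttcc
MRPS34: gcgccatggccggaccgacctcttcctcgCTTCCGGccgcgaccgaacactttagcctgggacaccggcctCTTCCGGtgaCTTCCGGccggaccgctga
MRPL20: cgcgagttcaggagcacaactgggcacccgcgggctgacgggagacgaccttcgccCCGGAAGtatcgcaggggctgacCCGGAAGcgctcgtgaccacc
MRPL3: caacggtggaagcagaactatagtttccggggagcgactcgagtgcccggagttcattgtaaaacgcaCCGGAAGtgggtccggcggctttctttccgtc
MRPL1: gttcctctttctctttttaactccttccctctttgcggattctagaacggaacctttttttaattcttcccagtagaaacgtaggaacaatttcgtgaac

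In 15 of the 84 windows (17.9%) the YY1 core lay on the gene's own strand within the 50 bases after the start, 6 to 35 bases downstream, against 439 of all 35116 windows and 2.42% of those of kept genes. In the other windows with the core it lay before the start, between positions -222 and -35. The core holds the letters ATG, and whether it overlaps the start codon of these genes was not examined. The stretch of 30 bases around it is shown for the 6 such genes among those named by rule, with the core in capitals: MRPS30 (chr5:44808949-44808978, plus), MRPS27 (chr5:72320206-72320235, minus), MRPS18A (chr6:43687764-43687793, minus), MRPS18B (chr6:30617852-30617881, plus), MRPL50 (chr9:101398577-101398606, minus) and MRPL42 (chr12:93467511-93467540, plus).
MRPS30: aatcgcgggcaAAGATGGCggcggccaggt
MRPS27: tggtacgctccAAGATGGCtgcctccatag
MRPS18A: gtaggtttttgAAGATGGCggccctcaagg
MRPS18B: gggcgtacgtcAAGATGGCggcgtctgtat
MRPL50: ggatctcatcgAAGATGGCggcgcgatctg
MRPL42: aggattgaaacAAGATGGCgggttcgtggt

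The differences between the arrays were set beside these letters without a test. The 30 genes with an ETS core in a window had a median log2 difference of 0.11, and the 38 without had 0.11. The 20 genes with a YY1 core had a median of 0.10, and the 48 without had 0.11. The 6 genes with an NRF1 core had a median of 0.04, against 0.12 for the 62 without. MRPL17 and MRPL32, at 0.39 and -0.19, are both among those 6.

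Compared with related gene groups, the mitochondrial ribosomal proteins resembled the nuclear genes of the respiratory chain and ATP synthase, which had a median of 0.10 (SD 0.14, 72 genes, 0 past 1.5-fold). The 59 measured cytosolic ribosomal protein genes had a median of 0.23 (SD 0.13). These groups share the 2 arrays, and no difference between them was tested. The order depended on the scaling: after quantile normalization the medians were 0.05 for mitochondrial ribosomal proteins, 0.0021 for cytosolic ones and -0.01 for the respiratory chain.

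The sign of the members' median also depended on the scaling. With the arrays centred on the bacterial hybridisation spikes, control transcripts added before hybridisation, it was -0.08, with 20 of 76 genes above 0, and the median of all kept genes was -0.16. Relative to the median of all kept genes, the members' median was higher by 0.09 on the deposited scaling and on the spikes, by 0.03 after quantile normalization and by 0.03 after loess. Centring on the spikes shifts every gene alike, so it cannot change this gap. No gene of the 76 was past 1.5-fold under any of these scalings, which for the spikes was fixed in advance because the shift is small.

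**Figure D5:**
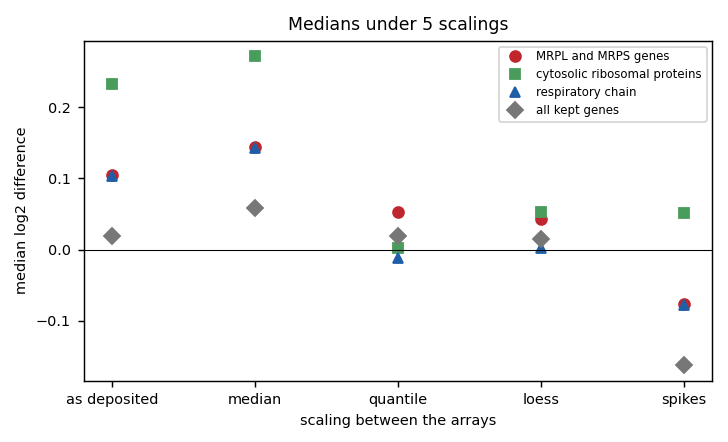
Median log2 difference (y axis) of 4 gene groups under 5 scalings between the arrays (x axis). The red points of the mitochondrial ribosomal proteins lie above the grey points of all kept genes in each, and fall below 0, to -0.08, with the arrays centred on the spikes. Centring on the medians or the spikes moves all groups alike, so it cannot change the gap between red and grey.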

How the data were processed

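Total RNA of 2 cultures was measured on 2 arrays. The authors deposited a signal for each probe set, read here as log2. The submitters' processing notes name MAS5, and its version, the log base and the scaling target were not given in the sources used. Raised to the linear scale as log2 values, the 2% trimmed mean was 500.1 on each array. Detection calls and scanner files were not used here. Part of the marker list of the cell line is not reported here. The platform annotation gives 1 gene to 41097 of 54675 probe sets.

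Signals under the array's median over non-control probe sets (6.10 and 6.06) were raised to it. A probe set was kept if its mean floored signal was above the mean floor, and a gene took its kept probe set of highest mean signal. Differences with an array under the floor are bounds. With 1 array per group no test was possible, and sizes were described at log2 differences of 0.32 and at 1.5-fold beside the share of all kept genes. The members and lists were chosen with earlier results of these data known. Named genes were every member past 1.5-fold, the 8 largest differences per direction, members whose probe sets all passed the error in 1 direction, the extremes of each structural group, the MRPS18 paralogs, MRPL12 and MRPS12, and up to 3 per direction in each other list; members named outside this rule were chosen after their values were seen. Alternatives were scalings (median, quantile, loess with span 0.3, spikes), floors (25th and 75th percentiles, none), the mean over probe sets, probe sets of unshared sequence, and other fold thresholds. The procedure was tested on simulated data. The planted changes were larger than the difference of any member, and the noise was the same for every probe set. The simulation therefore does not speak to differences as small as those of the members. Python 3.11.15, pandas 2.3.3, numpy 2.4.6 and statsmodels 0.14.6 were used.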

Additional observations from a re-analysis of the deposited data

How the results depend on the processing

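The count of members past 1.5-fold was 0 in each direction with the deposited scaling and with the other scalings, floors, the mean over probe sets and the 2-fold threshold. Much of this was fixed in advance. A count of 0 at 1.5-fold forces 0 at 2-fold, and floors left the brightest probe sets of these members unchanged, the lowest signal being 8.89. Centring on the medians or the spikes shifts every gene alike, by too little to carry any past 1.5-fold. Quantile normalization, loess and the mean over probe sets could have changed the count. The count was 1 lower (MRPL42) among the 44 members left without probe sets of shared sequence types, against 8.66% of all genes kept there. At the log2 threshold of 0.32 it was 3 higher (3.95%, against 12.8% of all kept genes). The median of the members was 0.14 with the arrays centred on their medians, 0.053 after quantile normalization, 0.043 after loess and -0.076 with the spikes. In the same order the large subunit median was 0.12, 0.043, 0.035 and -0.10, the cytosolic ribosomal protein median 0.27, 0.0021, 0.053 and 0.052, and the respiratory chain median 0.14, -0.012, 0.0025 and -0.077. The small subunit median was 0.068 after loess and -0.051 with the spikes.

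Members past their error, lower and higher, numbered 0 and 11 with median centring. After quantile normalization they numbered 2 and 4, after loess 2 and 3, and with the spikes 6 and 0. With a floor at the 25th percentile they numbered 0 and 3, at the 75th 2 and 12, and with no floor 0 and 0. The mean over probe sets gave 3 and 5, and leaving out shared sequence types gave 4 and 4. The error itself is recomputed under each setting, and the matching shares of all kept genes were not taken.

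With the spikes, the median was -0.12 for other mitochondrial ribosome proteins, -0.033 for translation factors, -0.13 for assembly, -0.076 for RNA synthesis and turnover and -0.077 for nuclear regulators. The median of RNA synthesis and turnover was -0.018 after quantile normalization, 0.00019 after loess and -0.061 with the mean over probe sets. Without shared sequence types, translation factors were at 0.25 and cytosolic ribosomal proteins at 0.18, and the latter were at 0.20 with the mean over probe sets. Without those types, 2 members had several probe sets all on the same side of 0. MRPL42 changed sign, to -0.090 with the mean over probe sets and -0.67 without shared sequence types. Genes within their error of 0 in the report also changed sign. With the mean over probe sets these were MRPL12 (-0.18), MRPL47 (0.22), MRPS18C (-0.11), MRPS30 (-0.028), MRPS5 (0.086), MTRF1 (-0.27), NRF1 (0.040) and PTCD3 (-0.091). Without shared sequence types they were DAP3 (-0.066), MRPL12 (-0.48) and MRPS5 (0.52). CHCHD1 and MRPS18B did so after loess, and with the spikes these 2 and GABPB1, MRPL12, MRPL18, MRPS12, MRPS18A, MRPS18C and PTCD3. Of 424 values of 49 named genes under the alternatives, 412 moved by less than the error, 10 moved by more and 2 changed sign from outside it. Part of this count was fixed in advance. Centring on the medians or the spikes shifts every gene alike by less than the smallest error of 0.27, and floors change only dim probe sets. MRPL17 fell to 0.21 with the spikes, inside its error, and still counts among the 412. The cause of the changes was not tested. With the 75 protein-coding members alone, an alternative chosen after seeing the data, the median was 0.11. No paired analysis was possible because each group has 1 array.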
